A study of Homo sapiens with 6 samples.

Results

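The 10 genes described here encode the core proteins that fuse, divide and clear mitochondria: MFN1, MFN2 and OPA1 for fusion, DNM1L, FIS1 and MFF for fission, and PINK1, BNIP3, BNIP3L and FUNDC1 for mitophagy. They were picked by gene symbol, and each was found once among the 58656 gene rows. All 10 passed the filter on low counts, which left 16481 genes to test. RNA was measured by sequencing in MDA-MB-231 cells, a human triple-negative breast cancer line. Cells were given 5 µM mitocurcumin, a form of curcumin targeted to mitochondria, for 9 hours (3 libraries) or the DMSO vehicle for 9 hours (3 control libraries). The labels call the libraries biological replicates but do not tell if each was a culture of its own. P-values measure the spread between these libraries, which may be partly technical.

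Mitochondria form a network that is remodelled by GTPases of the dynamin family. The mitofusins join the outer membranes of neighbouring mitochondria and OPA1 joins the inner membranes, while the cytosolic GTPase DRP1 is recruited to the surface by adaptors and constricts the organelle until it divides. Damaged mitochondria are removed by mitophagy, either through the kinase PINK1 and ubiquitin chains on the mitochondrial surface or through outer-membrane receptors that bind ATG8 proteins of the autophagosome directly. Much of this machinery is controlled by proteolysis, phosphorylation and ubiquitination of the proteins, which RNA levels do not show.

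Library totals ran from 23146822 to 29104681 estimated counts in mitocurcumin cells and from 23498132 to 25914240 in control cells. The first principal component of all tested genes held 51.6% of the variance and separated the groups. On the second, with 16.2%, control replicate 1 stood at 31.3 and the other control libraries at -17.1 and -17.2. Values without that library are given below where they change a call among the genes described. The labelled cell line was checked against its markers: the 6 mesenchymal-like carcinoma genes, such as VIM and CD44, summed to 7610 to 8039 CPM (counts scaled to the library total) in mitocurcumin cells and 8014 to 8095 CPM in control cells. ESR1, PGR and FOXA1 were too low to test. All 9 listed luminal markers together, with KRT8 and KRT18 the highest, summed to 421 to 438 CPM in mitocurcumin cells and 454 to 509 CPM in control cells. Sums were also lower in mitocurcumin cells for fibroblast markers (14.3 to 17.7 against 20.1 to 24.8 CPM in control cells), leukocyte markers, mostly CD68 (87.2 to 106 against 117 to 125 CPM), and endothelial markers (9.20 to 10.5 against 17.5 to 19.5 CPM). Of the fibroblast markers, COL1A2 was lower (mean 5.90 against 13.0 CPM). COL1A1 (9.25 against 8.52 CPM) and LUM (0.991 against 1.02 CPM) did not pass the test. The test called 3 of 6 luminal, 1 of 3 fibroblast, 1 of 4 leukocyte and 2 of 2 endothelial markers lower and none of them higher, and no listed marker was at 0 in all 6 libraries. Of the 6 mesenchymal-like genes, ZEB1 was called higher, by 0.26 on the log2 scale (edgeR adjusted p = 0.00367). FN1 was called lower, at -0.23 (edgeR adjusted p = 0.00498). Of the nuclear RNAs listed as a sign of RNA quality, NEAT1 was higher in mitocurcumin cells by 0.65 on the log2 scale (edgeR adjusted p = 2.4e-06). MALAT1 (0.14), KCNQ1OT1 (0.03) and MEG3 (-0.16) did not pass the test (edgeR adjusted p = 0.743, 0.786 and 0.788). The part of these differences in the results was not tested.

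Mitocurcumin cells had more RNA of the related mitophagy receptors BNIP3 and BNIP3L than control cells and slightly less of the inner-membrane fusion gene OPA1. The remaining 7 genes did not pass the test. By edgeR's quasi-likelihood test at an adjusted p under 0.05, 2 of the 10 were therefore higher and 1 was lower. Over all tested genes 32.5% were called, 14.7% as higher and 17.8% as lower, so 3 calls among 10 genes is close to the background share and is no result about the set. The median log2 fold change of the 10 genes was -0.02 and the median of its absolute value 0.07, against -0.01 and 0.23 over all tested genes. The 10 genes lay at percentiles 56.4 to 96.5 of mean CPM among all tested genes, so these medians are not matched for level. CPM ranges did not overlap between groups for 3 of the 10 genes, the same 3, while this held for 44.9% of all tested genes. CPM is a share of the sequenced RNA of many cells, so fewer cells expressing a gene and less of its RNA per cell cannot be told apart.

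**Figure D1:**
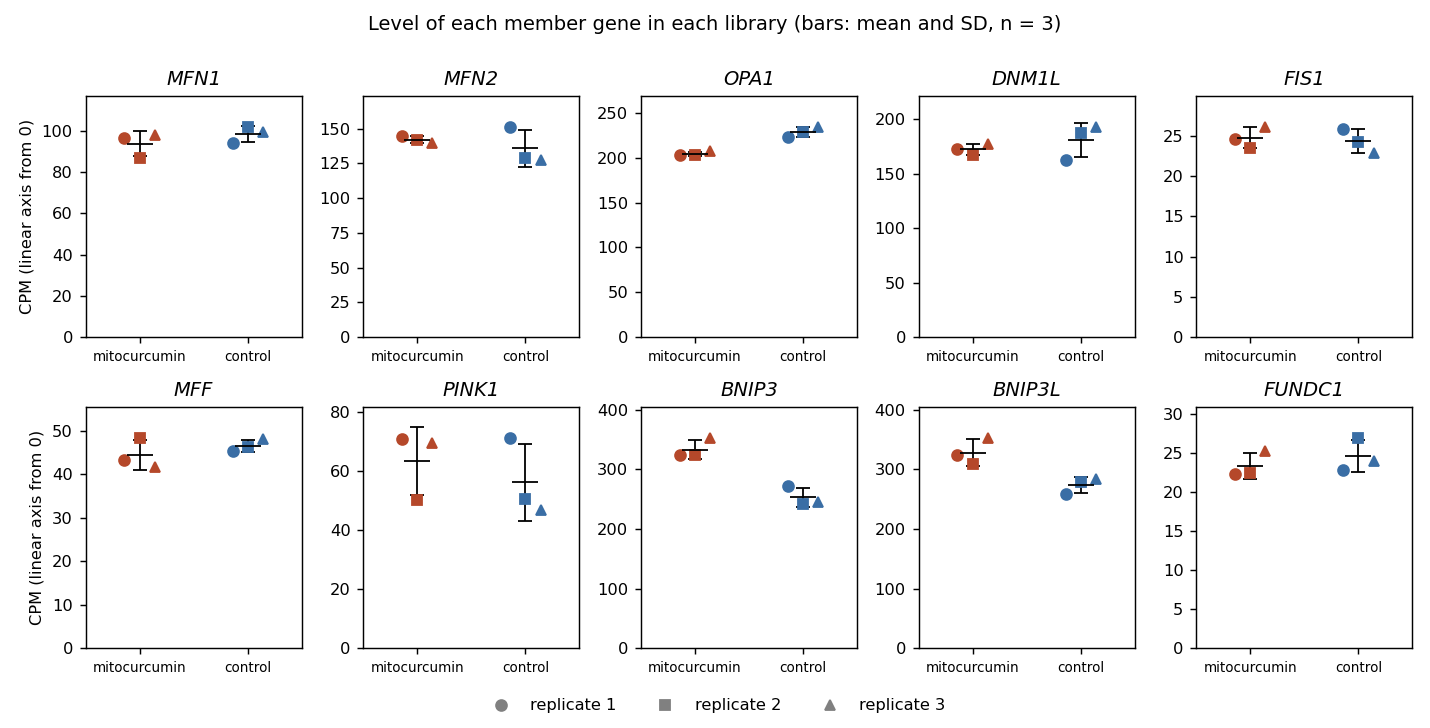
Normalised abundance of the 10 genes in each library, in CPM on an axis of its own for each gene, with mitocurcumin cells left of control cells; points are libraries and bars are the group mean and SD (n = 3). BNIP3 and BNIP3L are higher in all 3 mitocurcumin libraries than in any control library, OPA1 is lower in all 3, and the other 7 genes overlap.

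**Figure D2:**
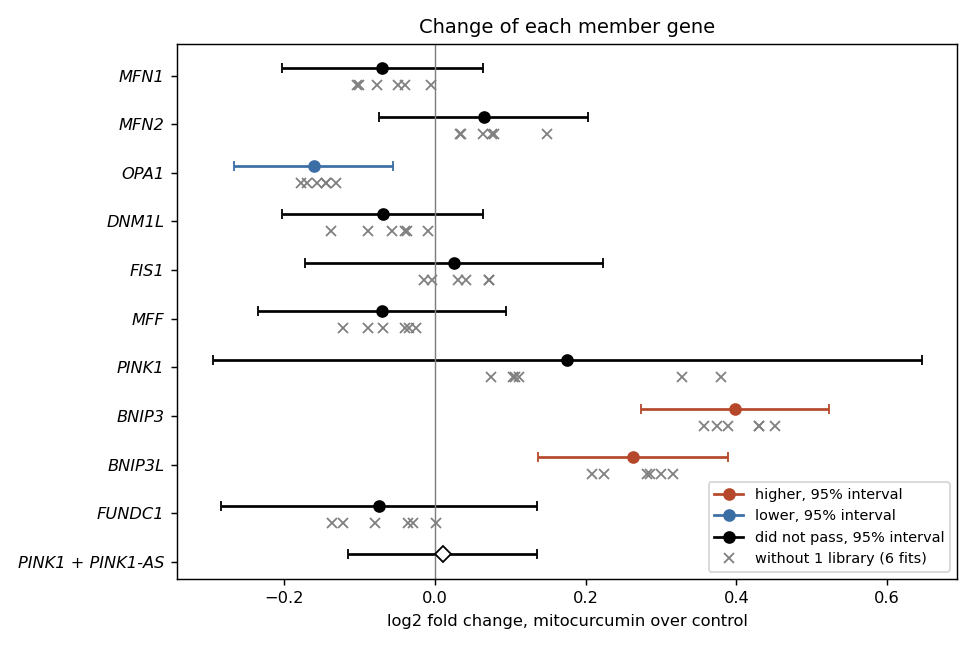
Log2 fold change of each of the 10 genes in mitocurcumin cells over control cells, with its 95% interval from edgeR, coloured where called; crosses are the fits without 1 library, and the diamond is PINK1 summed with its antisense gene. The intervals of BNIP3, BNIP3L and OPA1 leave out 0, and that of PINK1 is the widest, from -0.29 to 0.65.

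Of the fusion genes, only OPA1 passed the test. OPA1 (Entrez 4976, GRCh38 chr3:193593208-193697811, plus strand) encodes the dynamin-related GTPase that fuses inner membranes and keeps cristae junctions tight. Its RNA stood at 203, 203 and 207 CPM in the mitocurcumin libraries, against 223, 228 and 234 CPM in the control libraries. The highest mitocurcumin library lay below the lowest control library. OPA1 averaged 204 ± 2.22 CPM in mitocurcumin cells and 228 ± 5.37 CPM in control cells (SD, n = 3 each), a log2 fold change of -0.16 ± 0.05 (SE; 95% interval -0.27 to -0.06, edgeR adjusted p = 0.0202). This is a change of -10.5%, with an interval of -16.9% to -3.74%. The call rested on a narrow margin: it was lost under upper-quartile scaling (-0.13, adjusted p = 0.0582), with a stricter filter on low counts (-0.14, adjusted p = 0.0506) and without any 1 library other than control replicate 1 (-0.17 to -0.13, adjusted p between 0.0566 and 0.102). Without control replicate 1 it was -0.18, with an adjusted p of 0.00327. The antisense gene OPA1-AS1, which overlaps OPA1 on the opposite strand, had only 7 to 13 estimated counts per library, against 4759 to 5974 for OPA1.

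The mitofusins did not pass the test. MFN1 (Entrez 55669, GRCh38 chr3:179347709-179394936, plus strand), an outer-membrane GTPase that tethers and fuses mitochondria, had 96.3, 86.7 and 98.1 CPM in mitocurcumin cells, against 93.9, 102 and 99.4 CPM in control cells. The groups overlapped, and the log2 fold change was -0.07 ± 0.06 (95% interval -0.20 to 0.06, edgeR adjusted p = 0.443). MFN2 (Entrez 9927, GRCh38 chr1:11980444-12013508, plus strand), which also tethers mitochondria to the endoplasmic reticulum, had 145, 142 and 139 CPM in mitocurcumin cells, against 151, 129 and 127 CPM in control cells. Control replicate 1 was the highest of all 6 libraries, and the other control libraries were the lowest. The MFN2 log2 fold change was 0.06 ± 0.07 (95% interval -0.07 to 0.20, edgeR adjusted p = 0.494). Without control replicate 1 it was 0.15 and passed the test, with an edgeR adjusted p of 0.0207, where the 15 alternatives ran up to 0.774.

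The balance of the mitofusins within a library, which no scaling between libraries affects, was also measured. The log2 ratio of MFN1 to MFN2 was -0.59, -0.71 and -0.51 in mitocurcumin cells, against -0.69, -0.34 and -0.36 in control cells. Control replicate 1 lay within the mitocurcumin range and the other control libraries above it. The difference was -0.14, and a two-sided exact permutation test over the 6 libraries gave p = 0.3, which is 0.4 after Benjamini-Hochberg adjustment over the 2 ratios computed. With 3 libraries a group the smallest p this exact permutation test allows is 0.1.

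None of the fission genes passed the test. DNM1L (Entrez 10059, GRCh38 chr12:32679301-32745650, plus strand), which encodes DRP1, had 173, 167 and 177 CPM in mitocurcumin cells, against 163, 187 and 193 CPM in control cells. The mitocurcumin libraries all lay between control replicate 1 and the other control libraries. The log2 fold change of DNM1L was -0.07 ± 0.06 (95% interval -0.20 to 0.06, edgeR adjusted p = 0.444). Without control replicate 1 it was -0.14 and passed the test, with an edgeR adjusted p of 0.0256, where the 15 alternatives ran up to 0.944.

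FIS1 and MFF encode tail-anchored outer-membrane proteins, and MFF is a main receptor for DRP1 on mitochondria. FIS1 (Entrez 51024, GRCh38 chr7:101239472-101245081, minus strand) had 24.7, 23.5 and 26.1 CPM in mitocurcumin cells, against 25.8, 24.3 and 22.9 CPM in control cells. MFF (Entrez 56947, GRCh38 chr2:227325251-227357836, plus strand) had 43.3, 48.2 and 41.6 CPM in mitocurcumin cells, against 45.3, 46.3 and 48.0 CPM in control cells. For both genes the groups overlapped. The log2 fold change was 0.03 ± 0.09 for FIS1 (95% interval -0.17 to 0.22, edgeR adjusted p = 0.868). It was -0.07 ± 0.08 for MFF (95% interval -0.23 to 0.09, edgeR adjusted p = 0.541). These intervals leave out changes of the size seen for BNIP3.

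PINK1, the kinase that builds up on mitochondria with a lost membrane potential and phosphorylates ubiquitin, varied more between replicates than any other of the 10 genes. PINK1 (Entrez 65018, GRCh38 chr1:20633458-20651511, plus strand) had 70.7, 50.2 and 69.3 CPM in mitocurcumin cells, against 71.1, 50.6 and 46.9 CPM in control cells. Replicates of the same group thus lay either at 69.3 to 71.1 CPM or at 46.9 to 50.6 CPM, with libraries of both groups at each level. The coefficient of variation was 18.0% in mitocurcumin cells and 23.1% in control cells. The log2 fold change of 0.18 ± 0.20 did not pass the test (95% interval -0.29 to 0.65, edgeR adjusted p = 0.559), and it lay between 0.08 and 0.38 under the alternatives that kept the PINK1 row as deposited.

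The PINK1 locus also holds PINK1-AS, an antisense RNA gene (chr1:20642657-20652193) that overlaps PINK1 on the opposite strand. PINK1-AS had 20.0, 40.4 and 24.2 CPM in mitocurcumin cells, against 22.5, 42.9 and 38.9 CPM in control cells. The libraries with less PINK1 were those with more PINK1-AS. PINK1-AS took 22.1%, 44.6% and 25.9% of the counts of the pair in mitocurcumin cells, against 24.0%, 45.8% and 45.3% in control cells. Added together, a measure chosen after the values were seen, the pair had 90.7, 90.6 and 93.6 CPM in mitocurcumin cells, against 93.6, 93.5 and 85.8 CPM in control cells. The sum differed by 0.01 ± 0.06 on the log2 scale (95% interval -0.12 to 0.14, edgeR adjusted p = 0.918), with an SE far below that of PINK1 alone. Over 160 such sense and antisense pairs with enough counts, the antisense share spanned a median of 3.41 percentage points across the 6 libraries, against 23.8 points for PINK1, and 1 pair, that of LYRM4, spanned more (25.7 points). The LYRM4 share was 27.8%, 24.9% and 19.2% in mitocurcumin cells, against 37.5%, 42.0% and 45.0% in control cells. Its groups did not overlap, while the PINK1-AS share varied within each group. The libraries were stranded per the labels' protocols, but whether the counting used strand is not given in the sources used here, and how the reads of PINK1 and PINK1-AS were assigned was not tested.

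**Figure D3:**
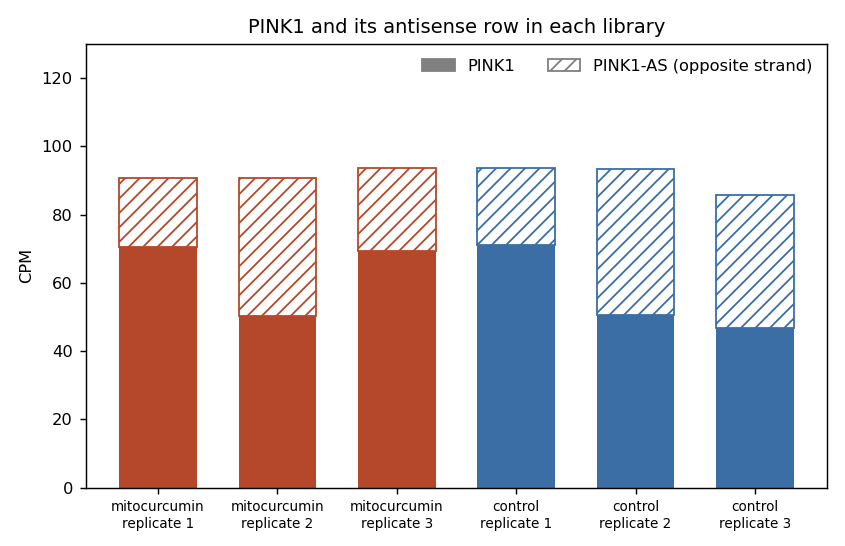
PINK1, PINK1-AS and their sum in each library, in CPM, with mitocurcumin libraries left of control libraries. PINK1 and PINK1-AS move in opposite directions between replicates of the same group, while the sum stays between 85.8 and 93.6 CPM.

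BNIP3 and BNIP3L, which encode related outer-membrane receptors that bind ATG8 proteins through a short motif, were the genes of the 10 that rose. Both are known targets of hypoxia-inducible factors. BNIP3 (Entrez 664, GRCh38 chr10:131967684-131981923, minus strand) had 324, 324 and 352 CPM in mitocurcumin cells, against 271, 242 and 245 CPM in control cells. Every mitocurcumin library lay above every control library. BNIP3 averaged 333 ± 16.3 CPM in mitocurcumin cells and 253 ± 16.0 CPM in control cells (SD, n = 3 each), a log2 fold change of 0.40 ± 0.06 (95% interval 0.27 to 0.52, edgeR adjusted p = 6.4e-05). That is an increase of 31.8%, with an interval of 20.9% to 43.6%. The call held in all 15 alternatives, with log2 fold changes between 0.36 and 0.45 and edgeR, limma or DESeq2 adjusted p of at most 0.00146. Its absolute change lay at percentile 71.5 among all tested genes. The 45 rows of BNIP3 pseudogenes were listed at 0 in every library.

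BNIP3L, also called NIX, is known from mice for clearing mitochondria from maturing red blood cells. BNIP3L (Entrez 665, GRCh38 chr8:26383054-26413127, plus strand) had 323, 309 and 352 CPM in mitocurcumin cells, against 259, 279 and 283 CPM in control cells. The groups again did not overlap. BNIP3L averaged 328 ± 21.9 CPM in mitocurcumin cells and 273 ± 13.0 CPM in control cells (SD, n = 3 each), a log2 fold change of 0.26 ± 0.06 (95% interval 0.14 to 0.39, edgeR adjusted p = 0.00259). That is an increase of 19.9%, with an interval of 9.92% to 30.9%, and the call held in all 15 alternatives. The log2 ratio of BNIP3 to BNIP3L was 0.0019, 0.07 and 0.00093 in mitocurcumin cells, against 0.07, -0.20 and -0.21 in control cells. Control replicate 1 was level with the highest mitocurcumin library, and the difference of 0.14 did not pass a two-sided exact permutation test (p = 0.4, and 0.4 after adjustment over the 2 ratios).

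FUNDC1, a receptor of another protein family that is also linked to mitophagy in hypoxia, did not rise with them. FUNDC1 (Entrez 139341, GRCh38 chrX:44523639-44542859, minus strand) had 22.3, 22.5 and 25.3 CPM in mitocurcumin cells, against 22.9, 26.9 and 24.0 CPM in control cells. The groups overlapped, and the log2 fold change was -0.07 ± 0.10 (95% interval -0.28 to 0.14, edgeR adjusted p = 0.619).

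Promoter sequence was read from RefSeq for 8 of the 10 genes, as 10 windows of 250 bases before a transcription start, and is shown for BNIP3 and OPA1, the genes with a called change for which a window was found. Each is printed 5′ to 3′ on the gene's strand with the searched motif in capitals. For BNIP3 (GRCh38.p14 chr10:131981924-131982173, minus strand) the capitals mark the hypoxia response element core ACGTG, read on each strand of a single CACGTG that lies 134 to 129 bases before the start. For OPA1 (chr3:193592958-193593207, plus strand) they mark the palindromic motif of nuclear respiratory factor 1, with the letters as capitalised, 94 to 85 bases before the start.
BNIP3: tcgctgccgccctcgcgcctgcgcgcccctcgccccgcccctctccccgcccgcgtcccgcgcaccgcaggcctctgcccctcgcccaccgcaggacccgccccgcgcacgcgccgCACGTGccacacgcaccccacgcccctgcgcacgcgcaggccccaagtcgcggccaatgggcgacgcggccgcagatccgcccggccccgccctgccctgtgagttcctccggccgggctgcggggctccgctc
OPA1: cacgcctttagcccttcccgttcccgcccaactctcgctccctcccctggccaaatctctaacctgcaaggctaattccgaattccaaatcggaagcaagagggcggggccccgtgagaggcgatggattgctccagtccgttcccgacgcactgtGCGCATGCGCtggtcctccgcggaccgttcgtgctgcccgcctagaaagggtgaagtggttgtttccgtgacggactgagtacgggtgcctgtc
Both strands were searched. ACGTG was found in 18.5% of all 35116 promoter windows of this length and the nuclear respiratory factor 1 motif in 1.03%, so the first is common. Among the genes described here ACGTG was also found in 1 of the MFF windows. TTGCATCA, a C/EBP-ATF response element held by 0.772% of all windows, and TGACGTCA, a cyclic AMP response element held by 1.65%, were not among the letters of any of these windows. A match is a description of the sequence, and no binding was measured.

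By profile over the 6 libraries, the genes most like BNIP3 were LYRM4, PPP1R26 and MREG, among 9627 genes with a mean of at least 10 CPM. Likeness was the smallest root mean square difference of log2 CPM centred on each gene's mean, and it was 0.0214 for LYRM4, 0.0253 for PPP1R26 and 0.0282 for MREG. LYRM4 is the gene noted above for the widest span of its antisense share, so its profile is uncertain to that extent. The genes most like OPA1 were SLC25A13 at 0.0130, MIGA1 at 0.0153 and RPL7L1 at 0.0156. MIGA1 encodes an outer-membrane protein that promotes fusion, and its own log2 fold change of -0.15 did not pass the test (edgeR adjusted p = 0.0798).

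Levels were compared between genes only after division by exon length, as CPM per kilobase of the exons of each gene joined together. BNIP3 had the highest level, 116 ± 5.69 CPM per kilobase in mitocurcumin cells and 88.4 ± 5.59 in control cells. BNIP3L followed with a level of 84.4 ± 5.63 CPM per kilobase in mitocurcumin cells and 70.4 ± 3.35 in control cells, and DNM1L came next with 37.0 ± 1.04 in mitocurcumin cells and 38.8 ± 3.38 in control cells. BNIP3 and BNIP3L thus stood well above the fusion and fission genes in both groups, with no overlap in level between BNIP3, BNIP3L and DNM1L. The receptor FUNDC1 lay below DNM1L, at 19.5 ± 1.41 CPM per kilobase in mitocurcumin cells and 20.5 ± 1.72 in control cells. MFN2 had a level of 30.4 ± 0.567 CPM per kilobase in mitocurcumin cells and 29.0 ± 2.84 in control cells, and OPA1 had 28.5 ± 0.310 in mitocurcumin cells and 31.8 ± 0.748 in control cells. MFN2 lay above OPA1 without overlap in mitocurcumin cells (29.8 to 30.9 against 28.2 to 28.8 CPM per kilobase), and their ranges overlapped in control cells. The 5 lowest genes, FUNDC1 among them, had mean levels from 17.7 CPM per kilobase for MFN1 to 23.8 for PINK1 in mitocurcumin cells. In control cells these ran from 18.5 for MFN1 to 21.1 for PINK1. The level of PINK1 leaves out the counts of PINK1-AS, so its place is uncertain to that extent. The ranges of PINK1, FIS1, MFF and FUNDC1 overlapped in both groups, so their order is not resolved. MFN1 lay at 16.3 to 18.5 CPM per kilobase in mitocurcumin cells. This was below FIS1 (19.0 to 21.1), FUNDC1 (18.6 to 21.1) and PINK1 (18.9 to 26.6) without overlap, but MFN1 overlapped MFF there by a small margin. In control cells MFN1 overlapped FIS1, FUNDC1 and PINK1. It lay below MFF there without overlap (17.7 to 19.2 against 20.1 to 21.3 CPM per kilobase). With the longest transcript as the length instead, BNIP3, BNIP3L and DNM1L kept the 3 highest places in the same order and MFN1 the last, while FIS1 moved to the sixth place and OPA1 passed MFN2 in mitocurcumin cells.

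**Figure D4:**
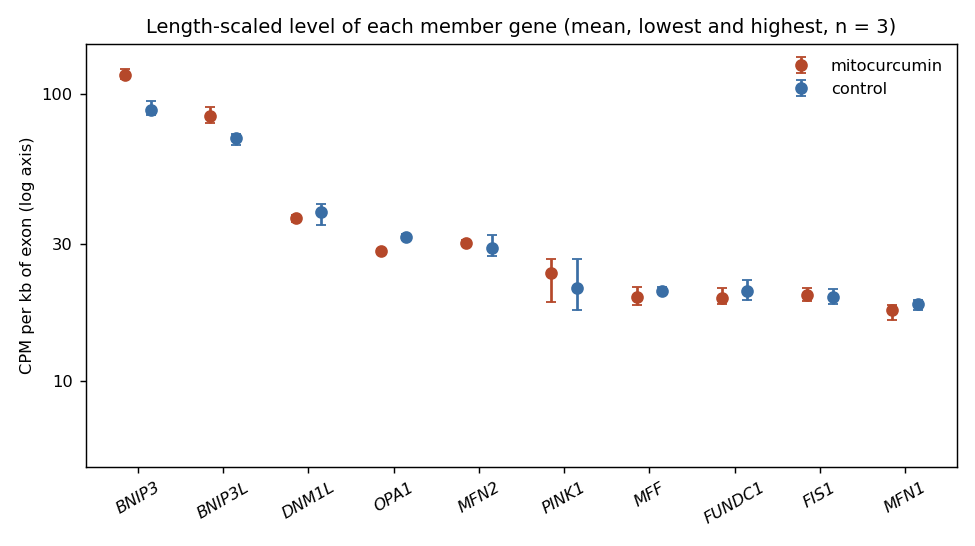
Level of each of the 10 genes per kilobase of exon, in CPM per kilobase on a log axis, with mitocurcumin cells beside control cells; points are group means and bars run from the lowest to the highest library (n = 3). BNIP3 and BNIP3L lie above DNM1L and the other genes in both groups.

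To set the 10 genes in their pathways, 88 further genes were placed in 8 lists by function, and 87 of them were tested. Of these 26 (29.9%) were higher and 7 (8.05%) lower in mitocurcumin cells, beside 14.7% and 17.8% of all tested genes. That is 37.9% called, beside 32.5%. The share called was 14.3% for cristae, 25% for fusion, 29.4% for PINK1 and ubiquitin and 33.3% for transport genes. It was 41.7% for control of receptor mitophagy, 42.9% for the ATG8 family, 46.7% for fission and 63.6% for receptors and adaptors. The median log2 fold change of the 87 was 0.08, against -0.01 over all tested genes. The lists were chosen with earlier results of these data known, so the counts describe them only.

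**Figure D5:**
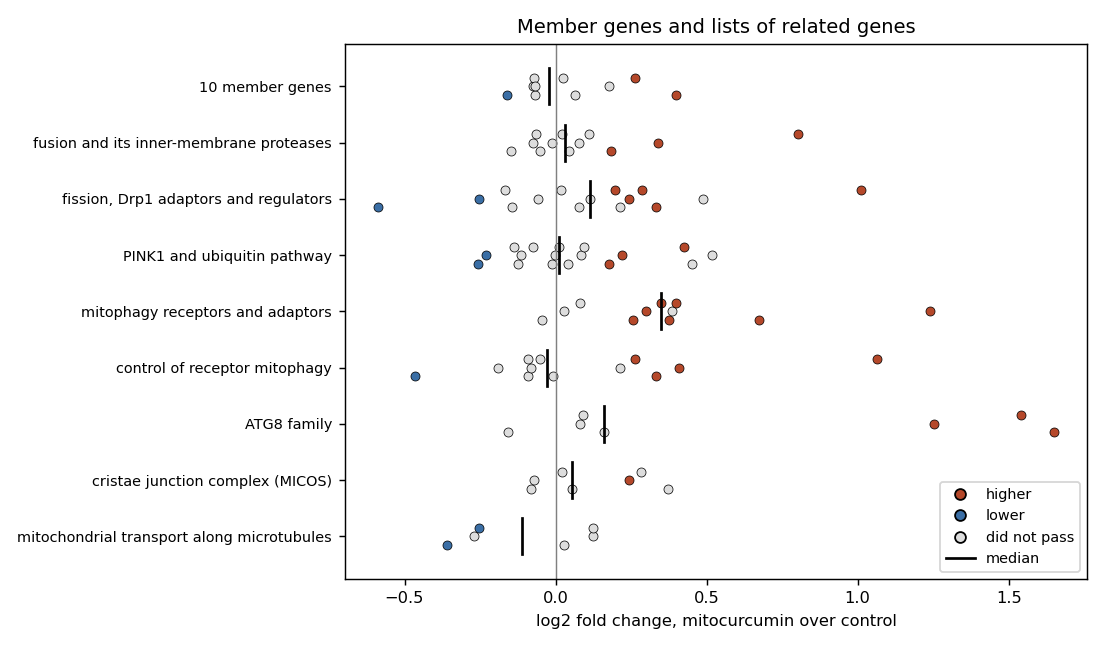
Log2 fold change of the 10 genes (top row) and of every tested gene of the 8 related lists in mitocurcumin cells over control cells, with called genes marked (edgeR adjusted p under 0.05) and a line at the median of each list. The mitophagy receptors and adaptors have the highest median, 0.35, and the transport genes the lowest, -0.11.

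Of 12 further fusion genes and inner-membrane proteases, 3 were higher and 0 lower, with a median log2 fold change of 0.03. PLD6, a phospholipase of the mitochondrial surface that acts in mitofusin-dependent fusion, averaged 12.5 ± 0.794 CPM in mitocurcumin cells and 7.14 ± 1.40 CPM in control cells (SD, n = 3 each), a log2 fold change of 0.80 ± 0.15 (edgeR adjusted p = 4.3e-04). PARL, the rhomboid protease that cleaves PINK1, averaged 54.2 ± 0.578 CPM in mitocurcumin cells and 42.9 ± 3.89 CPM in control cells (0.34 ± 0.08, edgeR adjusted p = 0.00293). YME1L1, one of the proteases that process OPA1, rose by 0.18 ± 0.05 on the log2 scale (edgeR adjusted p = 0.0102), a call lost without control replicate 2 (adjusted p = 0.0531, and 0.00285 to 0.0531 over all alternatives). OMA1, the stress-activated protease that also cleaves OPA1, was at 0.11 with an edgeR adjusted p of 0.475. Leaving out control replicate 1, 4 genes of this list were higher, with PHB2 added, and 2 lower, which were MIGA1 and SLC25A46.

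Of 15 tested genes of fission and its regulation, 5 were higher and 2 lower, with a median of 0.12. SPIRE1, an actin nucleator with a form that sits on mitochondria, averaged 250.2 ± 15.1 CPM in mitocurcumin cells and 124 ± 6.53 CPM in control cells, a log2 fold change of 1.01 ± 0.06 (edgeR adjusted p = 2.0e-09). SPIRE1 overlaps PSMG2 on the opposite strand and CEP76 on its own strand, so its counts are uncertain to that extent. SPIRE1 had 5476 to 7586 estimated counts per library in mitocurcumin cells and 2790 to 3188 in control cells. PSMG2 had 1391 to 1743 and 1273 to 1517, and CEP76 491 to 599 and 525 to 606, in the same order. The effect of shared reads was not tested. AKAP1, an outer-membrane anchor for protein kinase A, which phosphorylates DRP1 to inhibit it, fell to 43.9 ± 2.90 CPM in mitocurcumin cells, against 65.9 ± 4.63 CPM in control cells (-0.59 ± 0.08, edgeR adjusted p = 1.6e-05). MIEF1, which recruits DRP1, rose by 0.33 ± 0.07 (edgeR adjusted p = 0.00128), and SENP5, a SUMO protease that acts on DRP1, rose by 0.28 ± 0.06 (edgeR adjusted p = 0.00163), both as log2 fold changes. Without mitocurcumin replicate 2 or 3 only 1 gene of this list was called lower.

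Of 17 genes of the PINK1 and ubiquitin pathway, 3 were higher and 2 lower, with a median of 0.01. TOMM7, the import subunit that holds PINK1 on the outer membrane, rose by 0.42 ± 0.13 on the log2 scale (edgeR adjusted p = 0.0158). This call was lost without mitocurcumin replicate 2 (adjusted p = 0.0698), mitocurcumin replicate 3 (0.0839) or control replicate 3 (0.0794), and its adjusted p began at 0.00197 over the alternatives. USP8, a deubiquitinase, rose by 0.22 ± 0.06 (edgeR adjusted p = 0.00801). The ubiquitin-conjugating enzymes UBE2L3 and UBE2N fell by 0.26 ± 0.05 and 0.23 ± 0.05 (edgeR adjusted p = 0.00103 and 0.00301). UBE2N overlaps NUDT4 on the opposite strand, which had 2850 to 3351 estimated counts per library in mitocurcumin cells and 2551 to 2767 in control cells. Only 1 gene of this list was called higher without mitocurcumin replicate 2 or without mitocurcumin replicate 3. Without control replicate 1, USP15 was no longer called higher and TOMM70 was called lower, which gave 2 higher and 3 lower.

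Of 11 mitophagy receptors and adaptors, 7 were higher (63.6%, beside 14.7% of all tested genes) and 0 lower, with a median of 0.35. SQSTM1, which encodes the autophagy adaptor p62, averaged 574 ± 27.2 CPM in mitocurcumin cells and 243 ± 18.4 CPM in control cells, a log2 fold change of 1.24 ± 0.06 (edgeR adjusted p = 2.2e-10). SQSTM1 overlaps MGAT4B on the opposite strand. CALCOCO2, which encodes NDP52, and OPTN, the adaptors that link ubiquitin on damaged mitochondria to autophagosomes, rose by 0.67 ± 0.06 and 0.40 ± 0.06 (edgeR adjusted p = 2.9e-07 and 1.3e-04). BCL2L13, a receptor in the outer membrane, rose by 0.37 ± 0.07 (edgeR adjusted p = 6.6e-04). The receptors and surface signals FKBP8, NLRX1, NIPSNAP1 and NIPSNAP2 did not pass the test, with log2 fold changes of 0.08, 0.39, 0.03 and -0.05. FKBP8 without control replicate 1 (0.26, edgeR adjusted p = 0.00315) and NLRX1 without it (0.65, edgeR adjusted p = 0.00598) were called as well, which made 9 of 11 higher. When any other library was left out instead, 6 of 11 were higher, and 6 passed at an adjusted p under 0.01.

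Of 12 genes that control receptor mitophagy, 4 were higher and 1 lower, with a median of -0.03. ULK1, the autophagy kinase that phosphorylates FUNDC1, averaged 25.3 ± 1.61 CPM in mitocurcumin cells and 12.1 ± 2.74 CPM in control cells, a log2 fold change of 1.06 ± 0.13 (edgeR adjusted p = 1.3e-05). FOXO3, a transcription factor that drives BNIP3 in mouse muscle, rose by 0.41 ± 0.06 (edgeR adjusted p = 8.8e-05), and CSNK2A1, a subunit of the kinase CK2, which also phosphorylates FUNDC1, rose by 0.33 ± 0.05 (edgeR adjusted p = 1.6e-04). TMEM11, a mitochondrial membrane protein that binds BNIP3 and BNIP3L, fell by 0.47 ± 0.12 (edgeR adjusted p = 0.00708), a call lost without mitocurcumin replicate 2 (adjusted p = 0.0680, and 9.2e-04 to 0.0680 over all alternatives). HIF1A, the hypoxia-inducible factor subunit, did not pass the test (-0.08 ± 0.05, edgeR adjusted p = 0.282), and its activity is set mainly at the protein level.

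Of the 7 tested ATG8 family genes, the proteins that the receptors bind, 3 were higher and 0 lower. GABARAPL1 averaged 73.8 ± 4.89 CPM in mitocurcumin cells and 25.4 ± 1.08 CPM in control cells, a log2 fold change of 1.54 ± 0.08 (edgeR adjusted p = 2.3e-10). MAP1LC3B averaged 216 ± 7.29 CPM in mitocurcumin cells and 90.5 ± 2.19 CPM in control cells (1.25 ± 0.05, edgeR adjusted p = 4.8e-11). MAP1LC3B2, a near-identical copy that may share its reads, rose by 1.65 ± 0.23 but reached only 4.21 ± 0.149 CPM in mitocurcumin cells, against 1.34 ± 0.321 CPM in control cells (edgeR adjusted p = 3.3e-05). GABARAP was called as well without control replicate 1 (0.16, edgeR adjusted p = 0.0282).

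Cristae and transport genes were also listed. Of 7 genes of the MICOS complex, which shapes cristae junctions together with OPA1, 1 was higher and 0 lower. It was APOOL, at 0.24 ± 0.07 (edgeR adjusted p = 0.00973), a call lost without mitocurcumin replicate 3 (adjusted p = 0.0551, and 0.00448 to 0.0551 over all alternatives). MICOS13 was called as well without control replicate 1 (0.61, edgeR adjusted p = 0.0228). Of 6 genes of mitochondrial transport, 0 were higher and 2 lower. MYO19, an actin motor of mitochondria, fell by 0.36 ± 0.07 (edgeR adjusted p = 4.8e-04) and overlaps ZNHIT3 on the opposite strand. ZNHIT3 had 1199 to 1544 estimated counts per library in mitocurcumin cells and 969 to 1155 in control cells. KIF5B, the kinesin heavy chain that carries mitochondria along microtubules, fell by 0.25 ± 0.06 (edgeR adjusted p = 0.00267).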

How the data were processed

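RNA was extracted with Trizol and stranded poly(A) libraries were made with a KAPA kit, per the labels' protocols. Per the file headers genes were RefSeq models, and GRCh38 was the build in the submitters' processing notes. Which aligner and counting tool were used is not given in the sources used here. As deposited by the authors, the raw file holds estimated counts per gene and library, with no scaling between libraries. The authors also deposited log2 values, which equal log2 of the estimated count divided by 1 factor per library where above 0. Columns were matched to samples by treatment word and replicate number.

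After rounding, edgeR 4.0.16 under R 4.3.3 was used for the test (quasi-likelihood, robust, TMM; filterByExpr at a count of at least 10 and a total of at least 15), with the group as the only term. P-values are two-sided and Benjamini-Hochberg adjusted over all 16481 tested genes, and calls use an adjusted p under 0.05. The biological coefficient of variation was 8.43%. Each SE is the coefficient divided by the square root of F. The script was tested on simulated counts. Exon lengths come from GENCODE release 29 and promoters from RefSeq. Alternatives were DESeq2 1.42.0, limma 3.58.1, other scalings and filters, a replicate block and leaving out each library.

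The genes and lists were chosen with earlier results of these data known. Named from each list were at most 4 called genes with a mean of at least 1 CPM, largest change first. Genes singled out beyond that rule, OMA1, HIF1A, the uncalled receptors and those whose call changed without control replicate 1, were chosen after their values were seen.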

Additional observations from a re-analysis of the deposited data

How the results depend on the processing

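Over 15 alternatives BNIP3 and BNIP3L kept their direction and their call, with log2 fold changes of 0.36 to 0.45 and 0.21 to 0.32. OPA1 kept its direction but was called in 8 of 15: it was -0.13 under upper-quartile scaling, -0.14 with the stricter filter of 1 CPM in 3 libraries, and between -0.18 and -0.13 when 1 library was left out. The number of the 10 genes called lower was 0 under upper-quartile scaling, under the stricter filter and at an adjusted p under 0.01, and ran from 0 to 2 when 1 library was left out. Without control replicate 1, MFN2 and DNM1L were also called. When 1 library was left out the log2 fold changes ran from -0.10 to -0.0054 for MFN1, from -0.12 to -0.02 for MFF, from 0.034 to 0.15 for MFN2, from -0.14 to -0.0087 for DNM1L, from -0.014 to 0.072 for FIS1 and from -0.14 to 0.0013 for FUNDC1. FIS1 changed sign without mitocurcumin replicate 3 (-0.014) and without control replicate 3 (-0.0038), and FUNDC1 without control replicate 2 (0.0013); the cause was not tested. The log2 ratios within a library cannot change with scaling or a block. When 1 library was left out the difference ran from -0.25 (without control replicate 1) to -0.08 (without control replicate 2) for MFN1 to MFN2, around -0.14, and from 0.23 (without control replicate 1) to 0.09 (without control replicate 3) for BNIP3 to BNIP3L, around 0.14.

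Replicate numbers are shared between the groups, but deviations of same-numbered libraries correlated at 0.101, 0.0170 and -0.0101, so the numbers were not taken as pairs. With a replicate block 2 of the 10 genes were higher and 1 lower, as without it, with OPA1 at -0.16 and BNIP3 at 0.40, and the block changed no call among the 10. Mitocurcumin replicate 1 and control replicate 1 correlated best with each other, but control replicate 2 correlated better with mitocurcumin replicate 3 (0.0909).

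With 3 libraries a group, changes inside the 95% interval of an uncalled gene, such as -0.07 to 0.20 for MFN2 or -0.29 to 0.65 for PINK1, cannot be told from 0. FIS1, at 536 to 753 counts per library, and FUNDC1, at 527 to 730, are the most limited by depth.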
